A study of Mus musculus with 8 samples.

Results

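Interleukin-6 (IL-6) signalling was examined through 10 genes, Il6ra, Il6st, Jak1, Jak2, Stat3, Stat5b, Socs1, Socs2, Socs3 and Cish, of 20289 genes measured. Members were taken by gene symbol in the platform annotation, which gave 20 probes of 45281, and the brightest probe of a gene, by its average on all 8 arrays, stood for it. The choice of probe used no measured difference, but the members were chosen with earlier results of these data known. RNA came from primary hepatocytes of male C57Bl/6 mice, 4 arrays from mice fed a high fat diet (HFD 8, 10, 11 and 12) and 4 from mice fed normal chow (chow 1, 2, 3 and 5). No transgene or mutation is named for either group. Cells of both diets were plated in M199 containing 10% serum, insulin (100 nM), dexamethasone (400 nM) and EGF (1.5 nM). After 4 h the insulin was 10 nM, and RNA was taken 24 h later. The labels name no added IL-6 or growth hormone. The arrays are called biological replicates, and whether each is 1 mouse, and for how long or from what age the diets were fed, is not given in the sources used here.

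IL-6 binds its receptor chain, encoded by Il6ra, and the pair engages the shared signalling chain gp130, encoded by Il6st. Kinases of the JAK family attached to gp130 then phosphorylate STAT3, which enters the nucleus and switches on acute phase genes in hepatocytes. Growth hormone uses JAK2 and STAT5 in the same cells. STATs also induce genes of the SOCS family, whose proteins block receptors and JAKs, so that RNA of Socs3, Socs2 and Cish is commonly read as a trace of recent STAT activity. An array measures RNA only, and phosphorylated STAT was not measured.

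None of the 10 genes differed between the diets past the threshold (0 of 10 at an adjusted p under 0.05 in limma, against 4.04% of all genes, 1.47% higher and 2.57% lower in HFD). Fitted over all probes, 0 of the 20 probes passed, against 2.09% of all probes. The differences, always HFD minus chow on the deposited log2 scale, ran from -0.26 for Il6ra to 0.38 for Cish, with a median of 0.01 over the 10 genes and of -0.005 over all genes. The median size without regard to sign was 0.09 for the 10 genes and 0.04 for all genes. In chow, 3 of the 10 but 13097 of all 20289 genes lay below the upper quartile of all probes. Differences are smaller near background, so these 2 medians compare genes of unlike level. At an unadjusted p under 0.05 there were 3 of 10, where 14.1% of all genes passed. Socs2 and Cish were higher in HFD (2 of 10, against 5.74% of all genes) and Il6ra was lower (1 of 10, against 8.32%). Only for Il6ra did the 4 HFD arrays lie on 1 side of the 4 chow arrays (1 of 10, against 10.7% of all genes). That 1 lay below chow, as did 6.47% of all genes, and 0 lay above, against 4.24%.

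The array chow 3 stood apart, at a correlation across probes of 0.946 to 0.952 with the other arrays, which among themselves correlated at 0.989 or more. It gave the highest of the 8 values in 5 of the 10 genes (35.7% of all genes) and the lowest in 1 (13.7% of all genes). The value without it is given below for each of the 10 genes that it moved by over 1.5 times or turned in sign. Without it 0 of the 10 genes passed, where 1861 of 20289 genes did. The mean log2 level of 14 hepatocyte markers was 10.91 to 11.07 on the HFD arrays and 10.95 to 11.03 on the chow arrays. Single markers were uneven: Tat (7.41 in HFD, 7.38 in chow) and Pck1 (7.47 and 7.55) lay near background, and Alb was low (8.17 and 8.37). Of these 14 markers 1 passed (4.04% of all genes did), Cps1, a urea cycle enzyme gene (0.51, adjusted p = 0.0105). Without chow 3, 2 rose, Cps1 and Fah, and 1 fell, Serpina1c. With all 8 arrays Serpina1c differed by -0.27 (adjusted p = 0.0610). The median of all probes was 7.51, and values near it lie at background. Near background, log2 differences are smaller than the differences in RNA. Because all columns share 1 distribution, only changes relative to the other genes can be seen.

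Il6ra, which encodes the IL-6-binding chain, had the smallest p of the 10 genes. Its brightest probe (ILMN_1255743) read 7.90, 8.08, 8.07 and 8.01 on the HFD arrays, against 8.13, 8.26, 8.49 and 8.20 on the chow arrays. Each HFD value lay below each chow value, and chow 3 was the highest. The means were 8.01 ± 0.08 in HFD and 8.27 ± 0.15 in chow hepatocytes (SD, n = 4 each). HFD minus chow was -0.26 (95% confidence interval -0.44 to -0.08, SE 0.078), with an adjusted p of 0.150 in limma. Without chow 3 the difference was -0.18 (adjusted p = 0.0636). The other Il6ra probes were dimmer, at 7.60 to 7.75 in HFD and 7.49 to 7.91 in chow, overlapped between diets and differed by -0.07 and -0.08. With the mean of the 3 probes the difference was -0.13 and passed the threshold (adjusted p = 0.0390). On the same arrays 8 of 21 macrophage markers fell, against 2.57% of all genes, and 4 of the 21 were higher in HFD without passing. The mean log2 level of the 21 was 7.88 to 8.12 in HFD and 8.56 to 8.64 in chow. Whether macrophage content had a part in the Il6ra value was not tested. In bulk RNA of a culture, fewer cells of a type and less RNA per cell cannot be told apart.

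Il6st, which encodes gp130, had overlapping values. Its brightest probe (ILMN_2608184) read 8.88, 9.23, 9.01 and 8.76 in HFD, against 8.73, 8.996, 9.44 and 8.83 in chow. Chow 3 was again the highest array, and the other chow values lay close to the HFD range. The difference was -0.03 (SE 0.163, 95% confidence interval -0.41 to 0.35, adjusted p = 0.975), and 0.12 without chow 3 (adjusted p = 0.685). A second probe lay at background on every array, between 7.39 and 7.47.

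The kinase genes Jak1 and Jak2 did not separate the diets. Jak1, whose product sits on gp130 and interferon receptors, read 8.78, 8.72, 8.87 and 8.74 in HFD, against 8.998, 8.75, 9.18 and 8.44 in chow (ILMN_2701093). The HFD values sat inside the wider chow range, with SDs of 0.07 in HFD and 0.32 in chow. Its difference was -0.06 (95% confidence interval -0.40 to 0.27, adjusted p = 0.923), and 0.05 without chow 3. Jak2, the kinase of the growth hormone receptor, read 9.51, 9.52, 9.44 and 9.13 in HFD, against 9.24, 9.30, 9.54 and 9.25 in chow (ILMN_1245579). HFD 12 was the lowest array and chow 3 the highest. The difference was 0.07 (95% confidence interval -0.17 to 0.31, adjusted p = 0.875). It was 0.14 without chow 3 (adjusted p = 0.515) and ran from 0.03 without HFD 10 to 0.16 without HFD 12. A second Jak2 probe of intermediate level gave 0.08, and the remaining 2 probes each of Jak1 and Jak2 lay at background, between 7.38 and 7.56.

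Stat3, the transcription factor that carries the IL-6 signal, was bright in both groups. Its brightest probe (ILMN_2698046) read 10.09, 10.40, 10.45 and 10.22 in HFD, against 10.35, 10.01, 10.31 and 9.80 in chow. The ranges overlapped, with chow 5 the lowest array. The difference was 0.18 (SE 0.134, 95% confidence interval -0.14 to 0.49, adjusted p = 0.686), and 0.07 without chow 5 (adjusted p = 0.877). The 3 Stat3 probes disagreed in sign. The second (ILMN_2589790) gave -0.13, with 9.55 to 9.93 in HFD and 9.74 to 10.04 in chow. The third (ILMN_3096144) gave 0.26, with 8.27 to 8.70 in HFD and 7.45 to 8.57 in chow, where chow 3 alone read 7.45, at background. The 95% confidence interval of each probe included 0, so no direction for Stat3 can be given.

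Stat5b, the main STAT5 of the liver and a mediator of growth hormone action, could not be followed on this platform. Its single probe (ILMN_2746194) read 7.44, 7.41, 7.59 and 7.41 in HFD, against 7.42, 7.47, 7.41 and 7.44 in chow. Of these values 7 lie below the median of all probes, and HFD 11 just above it. The difference of 0.03 (95% confidence interval -0.07 to 0.13, adjusted p = 0.878) is therefore no statement about Stat5b RNA above background.

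Socs3, the feedback inhibitor induced by STAT3 that binds gp130, was near background in all cultures but chow 3. Its probe (ILMN_2618176) read 7.57, 7.65, 7.67 and 7.65 in HFD, against 7.70, 7.63, 8.02 and 7.62 in chow. Apart from chow 3 the groups lay together. The difference was -0.11 (SE 0.086, 95% confidence interval -0.31 to 0.09, adjusted p = 0.706), and -0.02 without chow 3 (adjusted p = 0.914). Socs1, an inhibitor of JAKs induced by interferon and IL-6, read 7.51, 7.49, 7.48 and 7.56 in HFD, against 7.44, 7.54, 7.51 and 7.56 in chow (ILMN_2634796). Its values were at background on every array, so the difference of -0.002 (adjusted p = 0.993) says nothing of Socs1 RNA above background.

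The feedback genes of the growth hormone and STAT5 branch were brighter and had the largest positive differences of the 10. Cish, which encodes an SH2 protein that competes at STAT5 docking sites, read 9.33, 9.34, 9.37 and 9.30 in HFD, against 8.73, 8.67, 9.05 and 9.38 in chow (ILMN_2718330). The HFD arrays were nearly identical, whereas the chow arrays spread widely and chow 5 was above every HFD array. The means were 9.33 ± 0.03 in HFD and 8.96 ± 0.33 in chow (SD, n = 4 each). The difference of 0.38, or 1.30-fold (SE 0.145, 95% confidence interval 0.04 to 0.71), missed the threshold (adjusted p = 0.276). Without chow 5 it was 0.52 and passed (adjusted p = 0.0239), whereas without chow 3 it was 0.41 and did not (adjusted p = 0.165).

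Socs2, which encodes the SOCS protein that restrains growth hormone receptor signalling, read 9.39, 9.60, 9.81 and 9.61 in HFD, against 9.36, 9.42, 9.39 and 9.11 in chow (ILMN_2628178). Of the HFD arrays, HFD 8 alone fell within the chow range. The means were 9.60 ± 0.17 in HFD and 9.32 ± 0.14 in chow, so HFD was higher by 0.28, or 1.22-fold (95% confidence interval 0.06 to 0.51, SE 0.098, adjusted p = 0.212). It was 0.31 without chow 3 (adjusted p = 0.121) and 0.35 without HFD 8 (adjusted p = 0.127). A further probe, listed under the older symbol Cish2 and matched to Socs2 through its synonyms, lay at background (7.41 to 7.48 on all arrays). With the mean of both probes the difference was 0.14 (adjusted p = 0.216).

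Promoter sequence is shown for Cish and Socs3, the members whose promoter windows hold the STAT consensus, and for Irf1 and Hamp, the 2 of the 6 response genes past the threshold (described below) that hold it. The windows of the other 4, Mcl1, Saa3, Lcn2 and Il1rn, held no match, nor did a second window of Irf1. The motif searched was TTCNNNGAA, which reads the same on both strands and to which STAT3 and STAT5 dimers bind. RefSeq windows (GRCm38.p6) of 300 bases, from 250 before to 50 after the annotated start, were found for 9 of the 10 genes. No window was available for Socs2, so its promoter was not searched. Of the 10 windows of the other 9 genes 2 held a match, against 8.30% of all 32851 windows. Among windows of the STAT3 response genes 12 of 42 did (28.6%). The Cish window held 2 matches (0.457% of all windows hold 2 or more), at positions 1 and 12 counted from the annotated start as 1. The match in Socs3 begins at -154, in Irf1 at -90 and in Hamp at -97. Printed below are the first 280 bases of each window, 5′ to 3′ on the gene's strand, with matches in capitals.
Cish, chr9:107296409-107296688 (plus strand): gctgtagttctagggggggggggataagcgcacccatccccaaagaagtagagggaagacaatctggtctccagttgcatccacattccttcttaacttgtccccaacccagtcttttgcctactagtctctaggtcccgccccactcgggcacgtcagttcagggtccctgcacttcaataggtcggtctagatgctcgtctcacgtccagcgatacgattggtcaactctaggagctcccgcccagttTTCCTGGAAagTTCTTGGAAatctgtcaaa
Socs3, chr11:117969337-117969616 (minus strand): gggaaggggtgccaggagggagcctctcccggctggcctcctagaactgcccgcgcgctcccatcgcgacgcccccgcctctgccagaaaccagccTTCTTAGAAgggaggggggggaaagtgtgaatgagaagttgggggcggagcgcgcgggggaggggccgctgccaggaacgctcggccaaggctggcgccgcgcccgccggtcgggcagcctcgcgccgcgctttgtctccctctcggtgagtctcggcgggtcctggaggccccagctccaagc
Irf1, chr11:53769764-53770043 (plus strand): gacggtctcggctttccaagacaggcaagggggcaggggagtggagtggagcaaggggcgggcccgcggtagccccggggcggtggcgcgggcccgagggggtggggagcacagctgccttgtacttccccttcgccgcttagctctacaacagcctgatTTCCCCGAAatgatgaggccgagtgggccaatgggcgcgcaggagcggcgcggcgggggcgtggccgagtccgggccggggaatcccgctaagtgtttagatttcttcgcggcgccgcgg
Hamp, chr7:30944000-30944279 (minus strand): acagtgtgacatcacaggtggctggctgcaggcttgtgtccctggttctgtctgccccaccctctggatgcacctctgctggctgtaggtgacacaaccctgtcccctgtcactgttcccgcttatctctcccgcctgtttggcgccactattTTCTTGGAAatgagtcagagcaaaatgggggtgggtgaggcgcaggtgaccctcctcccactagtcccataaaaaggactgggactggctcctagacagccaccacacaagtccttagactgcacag
A match describes these letters only. Socs3, with 1 match, was near background on 7 of the 8 arrays, and Irf1 and Hamp, with 1 each, passed the threshold in opposite directions.

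**Figure D1:**
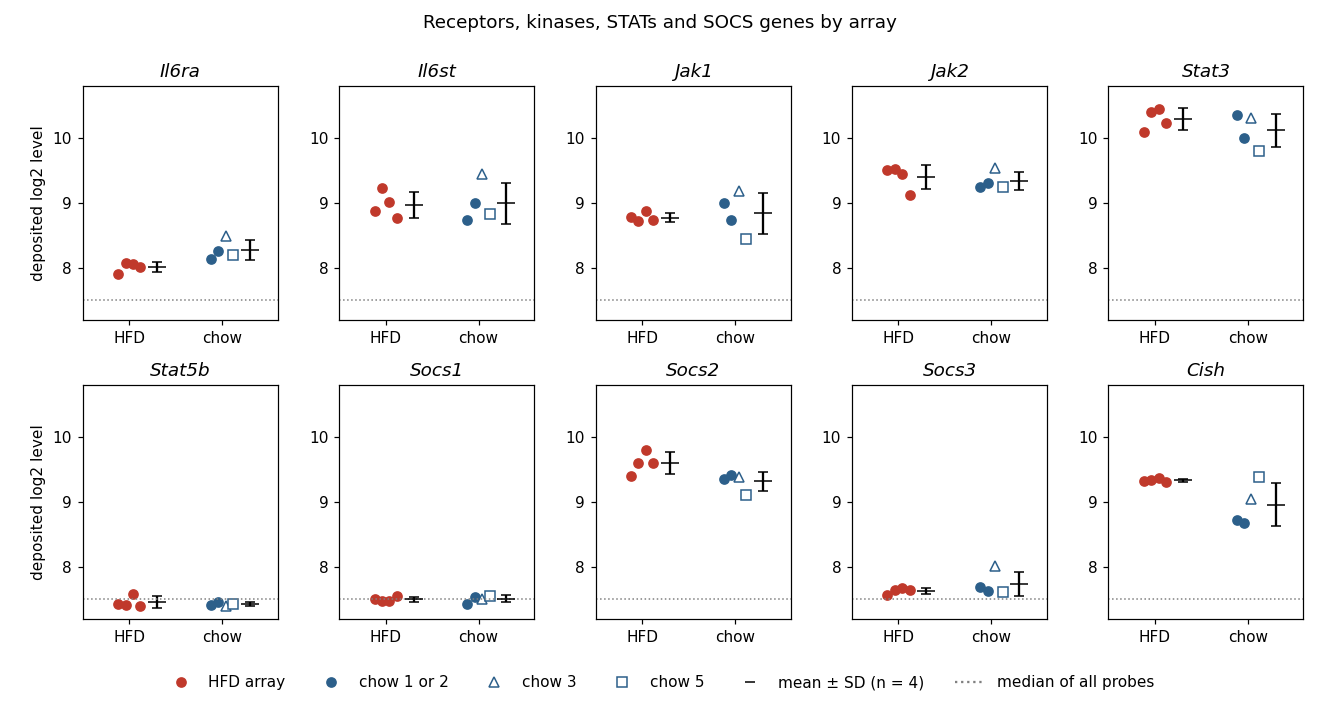
Deposited log2 level (vertical axis) of the brightest probe of each gene on 4 HFD and 4 chow arrays, 1 point per array, with mean ± SD beside each group and the median of all probes (7.51) as a dotted line. The groups overlap in 9 of the 10 panels, Il6ra being the exception, and the open triangle, chow 3, is the top value in 5.

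**Figure D2:**
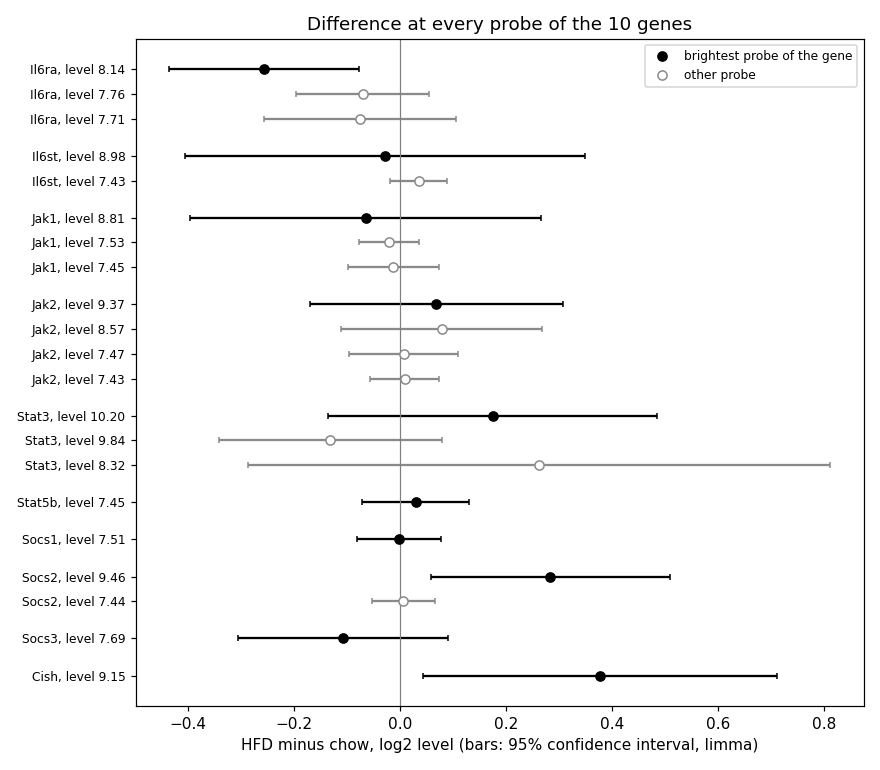
HFD minus chow (horizontal axis, log2 level) with 95% confidence intervals from limma for the 20 probes and the further Socs2 probe, labelled with gene and mean level. Filled points are the brightest probe of a gene; the intervals of Il6ra, Socs2 and Cish exclude 0 before adjustment, and the 3 Stat3 probes fall on both sides of 0.

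The spread among chow arrays was wider than among HFD arrays in 7 of the 10 genes, as in 67.8% of all genes. With chow 3 set aside this held for 4 of the 10, and for 49.8% of all genes. Cish was wider in chow with or without that array, with an SD over the remaining chow arrays of 0.39. With each array left out in turn, Il6ra, Socs3, Socs2, Cish, Stat3 and Jak2 kept their sign, whereas Socs1, Stat5b, Il6st and Jak1 changed it at least once.

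**Figure D3:**
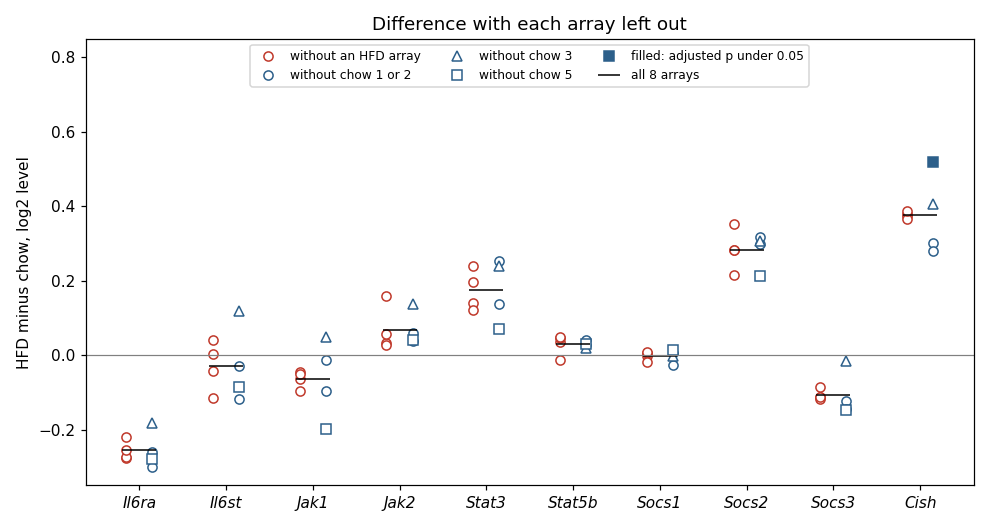
HFD minus chow (vertical axis, log2 level) for each gene with all 8 arrays (black bars) and with 1 array left out (red, an HFD array; blue, a chow array). The filled square, Cish without chow 5 at 0.52, is the only point with an adjusted p under 0.05.

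The other genes of the pathway were read from lists whose medians and counts are given here without a test of the list. Of 9 IL-6 family cytokine genes measured, 1 rose and 0 fell, against 1.47% and 2.57% of all genes. Il6 itself, named after its values were seen, was at background (7.41 ± 0.05 in HFD and 7.44 ± 0.01 in chow, adjusted p = 0.765). Ctf1, which encodes cardiotrophin, rose by 0.14 near background, with HFD arrays between 7.79 and 7.88 and chow arrays between 7.66 and 7.73 (SE 0.031, adjusted p = 0.0446). The call was lost without any array other than chow 3 (adjusted p up to 0.132), under a trended robust fit (0.220) and when probes under the median level were removed (0.0777). Without chow 3 a further gene fell, Clcf1 (-0.41, adjusted p = 0.0155), which encodes a cytokine acting through gp130 and read 8.14 to 8.18 on the HFD arrays, 7.42 on chow 3 and 8.34 to 8.73 on the remaining chow arrays. With all 8 arrays its difference was -0.12 (adjusted p = 0.920).

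Among 5 measured receptor genes of the IL-6 family 0 passed in limma (4.04% of all genes did), with 1 at an unadjusted p under 0.05 (14.1% of all genes). Lifr, the leukaemia inhibitory factor receptor gene, differed by -0.17 (adjusted p = 0.355) and Cntfr, the ciliary neurotrophic factor receptor gene, by -0.05 (adjusted p = 0.701), both near background. Without chow 3 these were -0.09 (adjusted p = 0.164) and -0.02 (adjusted p = 0.880). Of 17 receptor genes that use JAKs for other ligands, 1 fell and 0 rose (median -0.05), against 2.57% and 1.47% of all genes. The 1 that fell was Ghr, which encodes the growth hormone receptor upstream of JAK2, STAT5, Socs2 and Cish. Ghr read 11.22, 11.14, 11.26 and 11.14 in HFD, against 11.77, 11.84, 11.91 and 11.98 in chow. The groups were far apart relative to their spread, with a difference of -0.68, or 1.61-fold lower in HFD (SE 0.051, adjusted p = 0.000462). The differences of its 3 probes were between -0.68 and -0.41, and its call held in all 14 alternative settings, with an adjusted p up to 0.00369 when 1 array was left out.

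Of 6 other JAK and STAT genes 1 rose and 0 fell (median 0.02), against 1.47% and 2.57% of all genes. Stat5a, the close relative of Stat5b, read 7.75, 7.75, 7.88 and 7.95 in HFD, against 7.57, 7.65, 7.46 and 7.54 in chow. The groups did not overlap, although both lie low on the scale. The difference was 0.28 (SE 0.059, adjusted p = 0.0433), a second probe gave 0.01, and with the mean of both it was 0.14 and did not pass (adjusted p = 0.134). The call was lost without any array other than chow 3 (adjusted p up to 0.133). Since Stat5a and Stat5b are close in sequence, cross-signal between them is possible and the value is uncertain. Tyk2, another kinase gene of the gp130 receptors, was named after its values were seen. It did not pass with all 8 arrays (0.32, adjusted p = 0.444) but did with chow 3 left out (0.14, adjusted p = 0.0314). The differences of its 3 probes were between -0.009 and 0.32 with all 8 arrays. Of 19 further inhibitors, among them phosphatases, PIAS proteins and other SOCS genes, 0 passed in limma (4.04% of all genes did). At an unadjusted p under 0.05 there was 1 (14.1% of all genes), and the median of the 19 was -0.08. The smallest p-values were those of Socs4 (-0.22, adjusted p = 0.167) and of Ptpn6, a phosphatase gene of blood cells (-0.25, adjusted p = 0.376). Ptpn6 differed by -0.13 without chow 3 (adjusted p = 0.139), and Socs4 by -0.09 when its probes were averaged (adjusted p = 0.749).

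Downstream, of 41 measured genes that IL-6 and STAT3 are known to induce in hepatocytes, 3 rose and 3 fell, against 1.47% and 2.57% of all genes, and 35 did not pass. The median was 0.01. Mcl1, a survival gene of the BCL2 family, rose with 10.77, 10.76, 10.96 and 10.94 in HFD, against 10.17, 10.12, 10.39 and 10.31 in chow. The difference was 0.61, or 1.53-fold (SE 0.075, adjusted p = 0.00434). Hamp, which encodes the iron hormone hepcidin and responds to IL-6 through STAT3, fell with 13.11, 12.95, 13.20 and 13.07 in HFD, against 13.68, 13.85, 14.21 and 13.87 in chow. The difference was -0.82, or 1.77-fold lower in HFD (SE 0.110, adjusted p = 0.00634). Both calls held in all 14 alternative settings. The similar gene Hamp2 could add to the Hamp signal, which was not tested. The brightest probe named for Hamp2 averaged 7.71 in HFD and 7.81 in chow, near background (-0.10, adjusted p = 0.620 in limma).

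Saa3, a serum amyloid gene also made by macrophages, fell with 10.19, 11.55, 11.48 and 11.56 in HFD, against 12.72, 12.57, 13.04 and 12.95 in chow. HFD 8 was far below the other HFD arrays. The difference was -1.63 (SE 0.308, adjusted p = 0.0265), and the call was lost without chow 1, 2 or 5, without HFD 10, 11 or 12 and with trend and robust settings (adjusted p up to 0.0654). The remaining genes past the threshold are named because so few passed, after their values were seen. Irf1, an interferon regulatory factor gene whose window holds a match, rose by 0.46 (SE 0.097, adjusted p = 0.0389), with 9.05 to 9.45 in HFD and 8.66 to 8.96 in chow. Its 5 probes ranged from 0.03 to 0.46, and it kept its call without chow 3 or HFD 8 but not without any of the other arrays, nor as the average of its probes (adjusted p up to 0.167). Lcn2, the lipocalin gene, rose by 0.18 close to the top of the scale (adjusted p = 0.0346), and its call was lost without 6 of the arrays and in 3 other settings (adjusted p up to 0.176). Il1rn, which encodes the interleukin-1 receptor antagonist, fell by 0.37 (adjusted p = 0.0402) and lost its call without 6 of the arrays (adjusted p up to 0.128). The differences of its 4 probes were between -0.37 and 0.004, and their mean gave -0.15 (adjusted p = 0.0308).

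The counts of response genes past the threshold changed when single arrays were left out, as did the counts over all genes (820 of 20289 with all 8 arrays). Without HFD 8, 6 rose and 2 fell, where 543 of 20289 genes passed. Without chow 3, 3 rose and 6 fell, where 1861 of 20289 genes passed. Without chow 5, 2 rose and 2 fell, where 809 of 20289 genes passed. Without chow 1, chow 2, HFD 10, HFD 11 or HFD 12, 1 rose and 1 fell, Mcl1 and Hamp. In those settings only 447 to 602 of 20289 genes passed. The mean log2 level of the 41 genes was 10.27 on HFD 8 and 10.57 to 10.60 on the other HFD arrays, and 10.40 to 10.54 on the chow arrays.

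Saa1, the classic IL-6 target of hepatocytes and also named after its values were seen, had the largest positive difference of the list, 1.38, but did not pass (SE 0.568, adjusted p = 0.320). It read 13.41, 14.24, 13.81 and 14.13 in HFD, against 13.46, 12.99, 10.67 and 12.94 in chow. HFD 8 lay below chow 1, and chow 3 lay far below all other arrays. Without chow 3 the difference was 0.77 (adjusted p = 0.0544). The other of the 2 Saa1 probes differed by 0.52 with all 8 arrays.

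Of 23 measured growth hormone and STAT5 response genes of liver, 2 fell and 0 rose (median -0.03), against 2.57% and 1.47% of all genes. The list mixes genes that growth hormone raises, such as Igf1, with genes it lowers, such as Bcl6 and Cyp2b9. Its median and counts therefore give no direction of signalling. In chow, 11 of the 23 lay below the upper quartile of all probes. The 2 were Ghr, given above, and Cyp8b1, a bile acid synthesis gene, which fell by 0.23 close to background (adjusted p = 0.0156). Cyp8b1 lost its call without HFD 10 or HFD 12 (adjusted p up to 0.0603). Without chow 3, 1 gene of the list rose, Cyp7b1, and 3 fell, Ghr, Cyp8b1 and Bcl6, where 981 of 20289 genes rose and 880 fell. Igf1, the best known product of growth hormone action in liver, was named after its values were seen. It averaged 12.92 ± 0.10 in HFD and 13.34 ± 0.26 in chow, a difference of -0.42 that did not pass (SE 0.123, adjusted p = 0.133). It passed under a trended robust fit (adjusted p = 0.0421), and with the mean of its probes it was -0.27 (adjusted p = 0.0613).

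**Figure D4:**
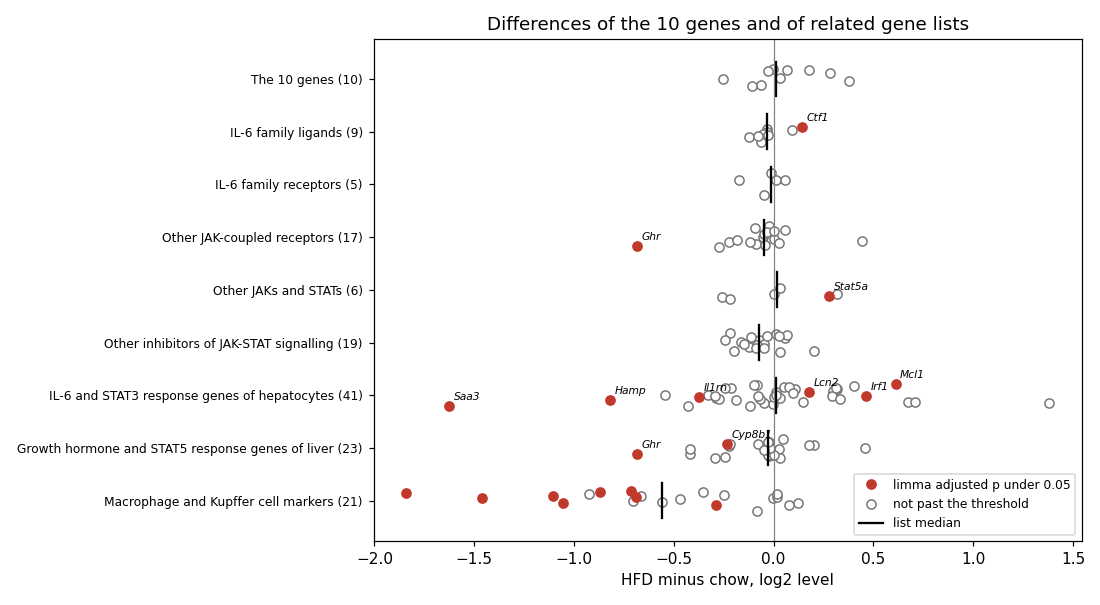
HFD minus chow (horizontal axis, log2 level) for the 10 genes, 7 lists of the same pathways and the macrophage markers, 1 point per gene with the number measured in brackets; filled points have an adjusted p under 0.05 and black bars are list medians. The 10 genes hold no filled point, and the STAT3 response genes have 3 on each side of 0.

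Some markers of other cells also passed the threshold, where 1.47% of all genes rose and 2.57% fell. Of 21 macrophage markers 8 fell and 0 rose (median -0.56), led by Fcer1g (-1.84), Laptm5 (-1.46) and Adgre1 (-1.11). By sign alone 17 of the 21 were lower in HFD and 4 higher. The 4 were Clec4f (0.12), Timd4 (0.08), Cybb (0.02) and Msr1 (0.02). The mean log2 level of the 21 markers was 7.88 to 8.12 on the HFD arrays, against 8.56 to 8.64 on the chow arrays. In chow, 7 of the 21 were below the upper quartile of all probes. Adgre1, a defining macrophage surface gene, was near background in HFD (7.56 to 7.70), against 8.62 to 8.96 in chow. Without chow 3, 12 fell, where 880 of all genes did. Of 20 sinusoidal endothelial markers 6 fell and 0 rose (median -0.29), led by Fcgr2b (-1.37), Lyve1 (-0.80) and Cdh5 (-0.78). The mean log2 levels were 7.78 to 7.85 in HFD and 8.06 to 8.21 in chow. By sign alone 17 of the 20 were lower in HFD and 3 higher, Stab1 (0.22), Clec4g (0.22) and Erg (0.04). Without chow 3, 12 fell and 1 rose, where 880 and 981 of all genes did. Cdh5 no longer passed with chow 2, chow 5 or any 1 of the HFD arrays left out (adjusted p up to 0.125). Of 18 stellate markers 2 fell, Sparc (-0.89) and Bgn (-0.35), and the Bgn call was lost without 6 of the arrays (adjusted p up to 0.121). By sign alone 14 of the 18 were lower in HFD and 4 higher, and 15 were below the upper quartile of all probes in chow. Averaged over all probes of each gene, the differences of Fcgr2b, Adgre1 and Sparc were smaller, at -0.40, -0.69 and -0.50, and still passed. Of 11 lymphocyte markers 1 fell, Ccl5 (-2.60), and of 10 neutrophil markers 1 fell, S100a8 (-1.07). Of 9 bile duct markers 2 rose, Cldn4 (0.58) and Tspan8 (0.27). These 4 had adjusted p-values of 0.0134 or less. By sign alone 7 of the 11, 7 of the 10 and 3 of the 9 were lower in HFD, and 4, 3 and 6 were higher. In chow, 10 of the 11, 9 of the 10 and 7 of the 9 were below the upper quartile of all probes. S100a9, also on the neutrophil list, lay at background (7.45 in HFD, 7.40 in chow). Macrophages also express Il6ra, Saa3, Il1rn and Ptpn6, for which HFD minus chow was -0.26, -1.63, -0.37 and -0.25. Of these, Il6ra and Ptpn6 did not pass in limma (adjusted p = 0.150 and 0.376). The 4 genes were picked after their values were seen, are all lower in HFD and are not all the genes read here that macrophages express. Other genes read here were higher in HFD, among them Mcl1 (0.61), Irf1 (0.46) and 4 of the 21 macrophage markers, while 17 of the 21 were lower. Whether macrophage content had a part in those values was not tested.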

How the data were processed

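Total RNA from hepatocyte cultures was measured on 8 single-colour Illumina arrays. The authors deposited 1 table of log2 values for 45281 probes. Per the submitters' processing notes lumi was used, with no version or option named there, so it is unknown if the values are simple logarithms or variance-stabilised, and folds are approximate. That it is a log2 scale follows from its range (7.23 to 14.91). Sorted columns differed from their mean by at most 0.0026, so they were not normalized again. Arrays have no read depth, so precision depends on how many there are. Gene names came from the platform annotation, updated through a RefSeq table (GRCm38.p6). A symbol was found for 35784 probes, 0 sample columns were left unused, and no filter on low values was applied.

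The diets were compared, HFD minus chow, with limma 3.58.1 (R 4.3.3, lmFit and eBayes, 2-sided, no covariate), with Benjamini-Hochberg adjustment over 20289 genes and a threshold of 0.05. The fit was tested on simulated normal values with the same spread in both diets, where only brighter genes were given a difference. The simulation held no outlying array like chow 3 and so does not bear on that array or on genes near background. The members, the lists and the tests were chosen with earlier results of these data known. The genes named are the 10 members and, from each list, up to 3 past the threshold with the largest difference (all past it for the family receptors, other JAKs and STATs and inhibitors), or, if none passed, the 2 of smallest p. Genes with a pattern like a member's were to be named only for members past the threshold, of which there were 0. Alternatives were leaving out each array, quantile normalization, array weights, trend and robust settings, averaging the probes of each gene, and dropping dim probes. Figures were drawn with matplotlib 3.10.9 (Python 3.11.15).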

Additional observations from a re-analysis of the deposited data

Results flagged for a closer look

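In 106 groups of 4 values, 8 held an array far from the others of its diet (by Dixon's 95% critical value), and chance flags about 1 group in 20. For the dimmer Il6ra probes these were HFD 11 at 7.67 (the other HFD arrays 7.73 to 7.75), HFD 8 at 7.60 (the others 7.68 to 7.70) and chow 3 at 7.49 (the others 7.81 to 7.84). For the background probe of Il6st it was HFD 11 at 7.41 (the others 7.46 to 7.47). Saa3 read 10.19 on HFD 8 (the others 11.48 to 11.56). Tyk2 read 8.59 on chow 3 (the others 9.29 to 9.31). Cps1 read 8.18 on chow 1 (the nearest 8.44), and Lyve1 read 8.21 on chow 5 (the others 8.65 to 8.73).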

How the results depend on the processing

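No paired analysis was possible because the diets share no replicate number. Background correction and a slide block were not run, since scanner values and slides were not analysed here. With all 8 arrays 820 genes and 945 probes differed, and leaving out 1 array gave 447 to 1861 genes and 415 to 2701 probes, the highest counts without chow 3. Without chow 3 the share of lower genes was 47.3%, against 63.5% with all arrays, and with array weights 51.9%. Array weights gave 1603 genes and 1894 probes. Of the 10 members 0 to 1 passed without 1 array (Cish without chow 5), and 1 passed when the probes of each gene were averaged (Il6ra, -0.13). Leaving out 1 array gave 0.28 to 0.52 for Cish, -0.0267 to 0.0142 for Socs1, -0.0136 to 0.0479 for Stat5b, -0.12 to 0.12 for Il6st and -0.20 to 0.0477 for Jak1. With array weights the sign turned for Socs1 (0.00239) and Il6st (0.0816), and with the mean of probes for Il6st (0.00337). For Clcf1, leaving out 1 array gave -0.41 (chow 3) to 0.0282 (chow 5). Causes were not tested.

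Counts past the threshold in the lists, with 1 array left out, ran from 0 to 2 for the cytokines, 0 to 2 for other JAKs and STATs, 2 to 9 for STAT3 response genes, 1 to 4 for STAT5 response genes, 1 to 3 for hepatocyte, 6 to 12 for macrophage, 4 to 13 for endothelial and 1 to 2 for stellate markers. The cytokine count was 0 with trend and robust settings and with dim probes dropped at the median or upper quartile. With array weights it was 4 for STAT5 response genes, 3 for hepatocyte, 14 for macrophage and 13 for endothelial markers. It was 0 for other JAKs and STATs with the mean of probes. Dropping dim probes at the upper quartile left 0 of 10 neutrophil markers to test (count 0) and 3 of 6 other JAKs and STATs without Stat5a (count 0). It left 12 STAT5 response genes, 2 stellate and 2 bile duct markers, of which 1 each passed. Dropping dim probes left 9 of the 10 members at the median and 7 at the upper quartile.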
